A study of Homo sapiens with 2 samples.

Results

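Cells of K562, an established human erythroid leukemia line from bone marrow that carries the BCR-ABL1 fusion kinase, were kept for 48 h in 1 µM cabozantinib (XL184), an inhibitor of several receptor tyrosine kinases, or for 48 h in its solvent DMSO. Each condition holds 1 library of RNA from asynchronous cells grown in RPMI medium with serum. The genes described here are the cytosolic and mitochondrial chaperones outside the HSP70 family, 42 genes of the 25702 in the count files. They were chosen by gene name under a rule that uses no measured value, with earlier results of these data known, and comprise heat shock factors, HSP90s and their co-chaperones, HSP110, small heat shock proteins, BAG proteins, HSP40 (J) proteins and the subunits of the chaperonins and prefoldin. Endoplasmic reticulum chaperones were left out. All 42 were found in the deposited tables by symbol, and all 42 passed the filter of 1 CPM (counts for each 1e6 counts, on TMM-scaled library sizes) in at least 1 library.

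Chaperones bind unfolded proteins, and many of them release these proteins in cycles driven by ATP. J proteins hand clients to HSP70, BAG proteins and HSP110 exchange its nucleotide, and STIP1 passes clients from HSP70 to HSP90, which finishes the folding of kinases (BCR-ABL1 among them), hormone receptors and other signalling proteins. Prefoldin delivers new actin and tubulin to the ring-shaped chaperonin CCT, while HSPD1 and HSPE1 form the chaperonin of mitochondria. HSF1, the heat shock factor, drives many of these genes under stress by binding repeats of the letters GAA in alternating orientation, called heat shock elements.

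The letters of this element were looked up in the promoter windows of the RefSeq annotation (build GRCh38.p14, 250 bases before to 50 from each gene start on), in which 37 of the 42 genes had 55 windows. CCT6A, FKBP4, HSF1, PFDN2 and STUB1 had no entry. An element of 3 units without mismatch, GAA, TTC and GAA or TTC, GAA and TTC with any 2 bases between units, was present for 6 of the 37 genes (16.2%) and for 0.608% of the 27305 genes of the table. Each of the 2 forms is the other on the opposite strand, so both strands were read. Per window, 6 of 55 (10.9%) held it, against 0.49% of 35116. The stretches around it are printed here because they are what a group of these genes shares in sequence. Capitals mark the 3-unit element, which lies 5' to 3' on the strand of the gene, before the annotated start whose window holds it except in DNAJA1, where it lies just after it. HSP90AA1, HSP90AB1 and HSPD1 also have annotated starts further upstream, so that their elements lie before one start and downstream of another. CHORDC1 and HSPD1 hold several overlapping copies.

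HSP90AA1 (chr14:102087112-102087141, minus strand): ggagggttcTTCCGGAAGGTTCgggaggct
HSP90AB1 (chr6:44247758-44247863, plus strand): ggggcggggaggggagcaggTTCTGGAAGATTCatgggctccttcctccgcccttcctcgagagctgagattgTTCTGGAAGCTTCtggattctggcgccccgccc
CHORDC1 (chr11:90223083-90223112, minus strand): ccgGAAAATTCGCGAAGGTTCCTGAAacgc
DNAJA1 (chr9:33025260-33025288, plus strand): tgcggcgcgccgggcgGAACTTTCCAGAA
DNAJB6 (chr7:157336849-157336909, plus strand): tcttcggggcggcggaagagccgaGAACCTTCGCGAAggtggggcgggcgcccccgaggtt
HSPD1 (chr2:197500062-197500090, minus strand): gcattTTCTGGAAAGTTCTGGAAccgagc

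DNAJB1 held only the shorter element of 2 units, GAANNTTC or TTCNNGAA, shown here in capitals before one of its 3 annotated starts because its ratio below was among the highest.

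DNAJB1 (chr19:14518398-14518497, minus strand): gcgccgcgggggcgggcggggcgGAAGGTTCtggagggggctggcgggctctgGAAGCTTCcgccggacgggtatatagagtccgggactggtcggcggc

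The 2-unit element, a part of every 3-unit one, was found for 15 of the 37 genes (40.5%) and for 16.2% of all genes in the table. CACGTG, the E-box that MYC and its relatives bind, reads the same on both strands and was found for 3 of the 37 (8.11%; all genes 8.77%), HSF2, HSPD1 and HSPE1. CCAAT on either strand was found for 11 (29.7%; all genes 39.7%). A match gives letters near a start and not a bound site.

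**Figure D1:**
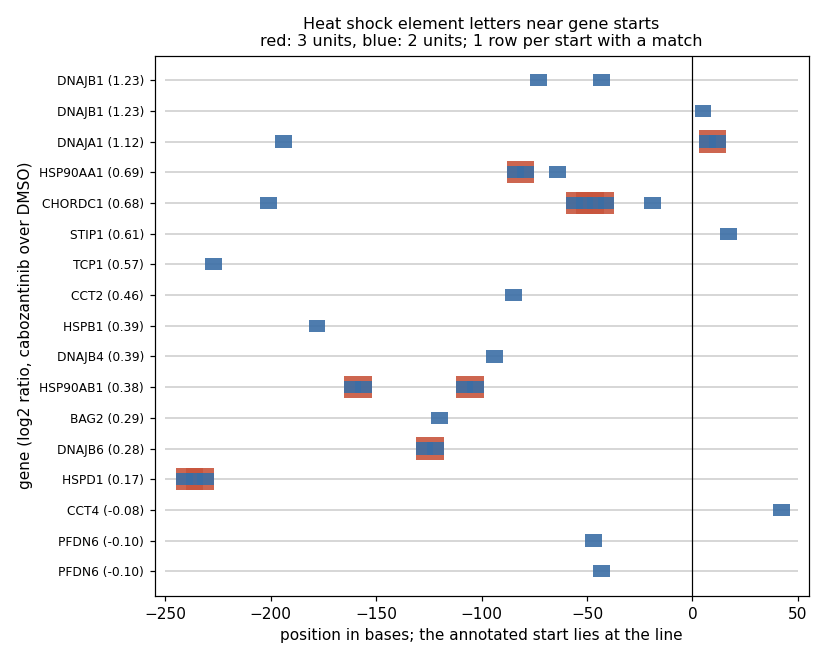
Heat shock element letters near the annotated starts of the genes that hold them. The x axis gives the position in bases around the start (black line), each row is a start with a match, ordered by the gene's log2 ratio (in brackets), and red and blue blocks are elements of 3 and 2 units. The 6 genes with red blocks lie between log2 ratios of 0.17 and 1.12.

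The DMSO library held 25025243 counts and the cabozantinib library 25505289, and the 42 genes had at least 668 counts in each. With 1 library per condition no test of the conditions and no replicate spread can be given. Ratios are cabozantinib over DMSO, with exact 95% intervals of the ratio of the 2 counts that cover counting error only, and not differences between cultures or preparations. Calls of higher or lower required a difference of 1.5-fold (a log2 ratio of 0.58) or more and an interval without no change. The 11 markers of the erythroid line were all measured, 8 of them higher and 0 lower, beside 8.15% higher and 12.3% lower among all measured genes. Their summed level was 13668 CPM in DMSO and 37651 CPM with cabozantinib, most of it from the globins HBG1, HBG2, HBE1 and HBZ. Of markers of other cell types, the fibroblast genes COL3A1 and DCN had at most 4 counts, and the epithelial genes EPCAM and KRT19 lay at 63.4 to 87.7 CPM in these cells. Mitochondrially encoded genes made up 4.12% of counts in DMSO and 4.90% with cabozantinib, and globins 1.42% and 3.84%. The part of these shifts in the ratios below was not tested, except that scaling by total counts without these genes is given in the closing section.

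With cabozantinib 9 of the 42 chaperone genes (21.4%) were called higher and 0 were called lower. Over all 12536 measured genes the same rule called 8.15% higher and 12.3% lower (6.05% and 14.6% when scaled by total counts). Among the 4787 genes with a mean of at least 50 CPM, nearer the level of most of these chaperones, it called 5.85% higher and 5.62% lower. The 9 genes were HSPH1, DNAJB1, DNAJA1, HSPE1, HSP90AA1, CHORDC1, BAG1, AHSA1 and STIP1. Scaling by total counts left 6 of them past 1.5-fold. The first 3 also passed 2-fold, a size reached upward by 2.71% and downward by 5.76% of measured genes.

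Over the 42 genes the log2 ratio had a median of 0.27 (0.22 to 0.33 as the medians of the genes' own bounds), against 0.01 for all measured genes. Of the 42, 35 lay above no change and 7 below (31 and 11 when scaled by total counts), where 51.0% of all measured genes lay above. Counting error excluded no change in the upward direction for 32 of the 42, against 34.8% of measured genes, and in the downward direction for 5, against 32.1%. These chaperones are deeply covered, which narrows their intervals. Together they took 1.53% of all counts in DMSO (exact 95% binomial interval 1.53% to 1.54%) and 1.84% with cabozantinib (1.84% to 1.85%).

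**Figure D2:**
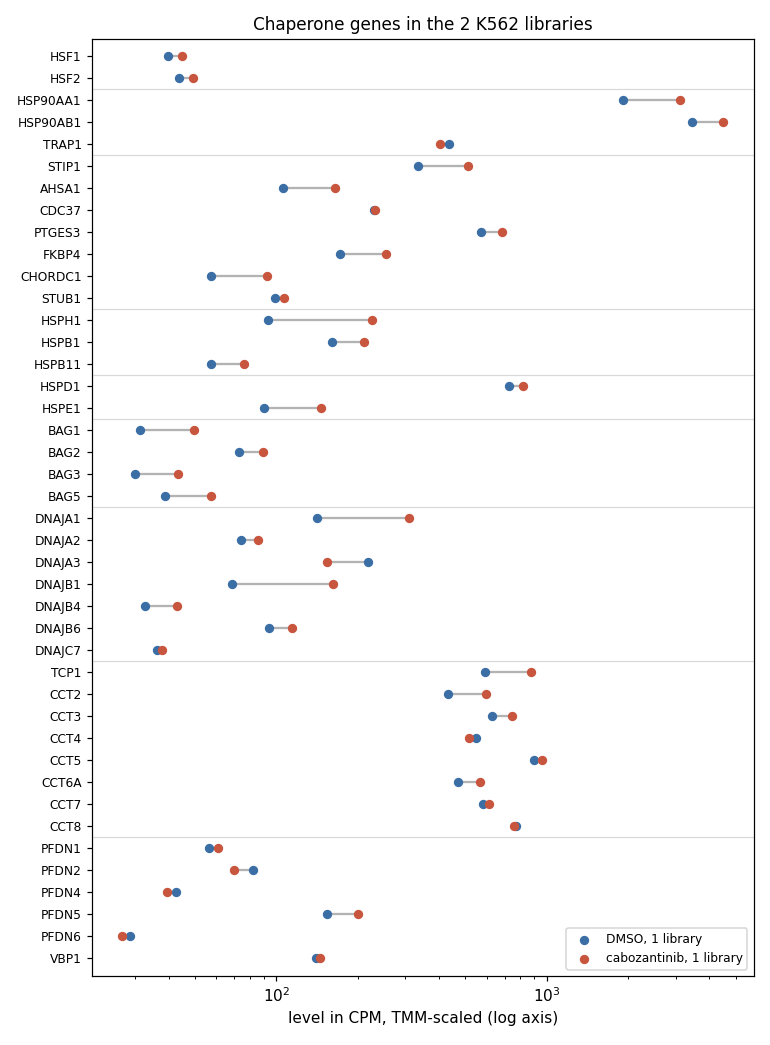
Level of each of the 42 chaperone genes in the DMSO library (blue) and the cabozantinib library (red), in CPM on a log axis. Grey lines separate role groups, and the longest joins are those of HSPH1, DNAJB1 and DNAJA1.

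HSF1, the transcription factor itself, had 1024 counts in DMSO and 1111 with cabozantinib, or 39.7 and 44.9 CPM. Its log2 ratio was 0.17 (0.05 to 0.30). HSF2, a relative that can pair with HSF1, had 1129 and 1215 counts and a log2 ratio of 0.16 (0.04 to 0.28). Neither transcript was called. RNA levels do not report on the activity of these factors.

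HSP90AA1, the stress-inducible cytosolic HSP90 (hg19 chromosome 14, 102547075 to 102606086, minus strand, 13 exons), had 49575 counts in DMSO and 76962 with cabozantinib, or 1924 and 3107 CPM. That is 1.61-fold higher (1.60 to 1.63). HSP90AB1, the constitutive cytosolic form (chromosome 6, 44214849 to 44221614, 12 exons), had 89050 and 111681 counts, 3456 and 4509 CPM. Its log2 ratio of 0.38 (0.37 to 0.40) was short of 1.5-fold. TRAP1, the HSP90 of mitochondria (chromosome 16, 3708038 to 3767598), had 11232 and 9995 counts and a log2 ratio of -0.11 (-0.15 to -0.07). The 3 forms thus covered a range from slightly below no change to 1.61-fold above it.

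Per length, HSP90AB1 remained the most abundant HSP90 transcript in each library, at 1362 and 1776 RPKM (counts per kilobase of annotated exon per 1e6 counts), followed by HSP90AA1 at 472 and 763 RPKM and TRAP1 at 190 and 176 RPKM. HSP90AA1 stood at 0.347 of the HSP90AB1 level in DMSO (0.343 to 0.351) and at 0.429 with cabozantinib (0.425 to 0.433). The intervals of this ratio do not overlap between the libraries, but they cover counting error only. At these high counts they are narrow, and differences between cultures or preparations are not in them. The cytosolic pair alone took 0.554% of all counts in DMSO and 0.740% with cabozantinib.

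Of 7 HSP90 co-chaperones 3 were called higher and 0 lower (median log2 ratio 0.57). CHORDC1, an HSP90 partner with zinc-binding CHORD domains, went from 1483 to 2284 counts (57.6 to 92.2 CPM), 1.60-fold higher (log2 ratio 0.68, 0.59 to 0.78). AHSA1, the activator of the HSP90 ATPase, went from 2728 to 4084 counts (106 to 165 CPM), 1.56-fold higher (1.48 to 1.64). STIP1, the adaptor between HSP70 and HSP90, went from 8617 to 12683 counts (334 to 512 CPM), 1.53-fold higher (1.49 to 1.57). AHSA1 and STIP1 lost the call when scaled by total counts (log2 ratios of 0.55 and 0.53).

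FKBP4, a prolyl isomerase that serves steroid receptors, lay just under the size required, with 4441 and 6321 counts and a log2 ratio of 0.57 (0.51 to 0.62). PTGES3, the co-chaperone p23 that stabilises closed HSP90, had a log2 ratio of 0.26 and STUB1, the ubiquitin ligase CHIP, one of 0.12. CDC37, which brings protein kinases to HSP90, was the lowest of the 7, with 5933 and 5739 counts and a log2 ratio of 0.01 (-0.04 to 0.06) that turned to -0.08 under scaling by total counts.

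HSPH1, the HSP110 that exchanges the nucleotide of HSP70 (chromosome 13, 31710762 to 31736117, minus strand, 18 exons), had the largest ratio of the 42. Its counts were 2412 in DMSO and 5583 with cabozantinib, or 93.6 and 225 CPM, 2.41-fold higher (2.30 to 2.53). HSPB1, the small heat shock protein HSP27, had 4132 and 5220 counts and a log2 ratio of 0.39 (0.33 to 0.45). HSPB11, which despite its name is the transport protein IFT25 of cilia, had 1477 and 1880 counts and a log2 ratio of 0.40 (0.31 to 0.50). Neither passed 1.5-fold.

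The subunits of the mitochondrial chaperonin differed from each other. HSPE1, its 10 kDa lid (chromosome 2, 198364721 to 198368187), had 2331 and 3637 counts, or 90.5 and 147 CPM, 1.62-fold higher (1.54 to 1.71). HSPD1, the 60 kDa ring subunit (chromosome 2, 198351308 to 198364998), had 18685 and 20215 counts and a log2 ratio of 0.17 (0.14 to 0.20). Per length, HSPE1 stood at 0.319 of the HSPD1 level in DMSO (0.305 to 0.333) and at 0.460 with cabozantinib (0.444 to 0.476). These genes lie head to head on opposite strands, and in the deposited annotation their exons overlap by 115 bases. Whether strand was used in counting, and so how reads from the overlap were assigned, is not known here. RefSeq lists 28 pseudogenes under the name of HSPE1 and 22 under that of HSPD1, and how reads with several alignments were counted is not known here. In all, 21 of the 42 genes have such pseudogenes, 6 of the 9 called higher among them. Only names made of the gene's own symbol, a P and any digits were counted, so pseudogenes named otherwise are missed. HSP90AA1, HSP90AB1 and CCT6A had no match of this kind, which does not show that they lack pseudogenes. The E-box found for both genes is a single site between their starts, printed here in capitals as the one motif lying in windows of both. The 3-unit heat shock elements of HSPD1 (GRCh38.p14 chr2:197500068-197500085) also lie upstream of HSPE1. They fall outside the HSPE1 window, which begins at 197500129, and so were not counted for HSPE1.

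HSPE1 (GRCh38.p14 chr2:197500345-197500374, plus strand): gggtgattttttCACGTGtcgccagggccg

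Of 4 BAG proteins, exchange factors of HSP70, 1 was called higher and 0 lower (median log2 ratio 0.55). BAG1 went from 806 to 1227 counts (31.3 to 49.5 CPM), 1.58-fold higher (log2 ratio 0.66, 0.53 to 0.79), and fell just short of the size when scaled by total counts. BAG5 (997 and 1420 counts, 0.57, 0.45 to 0.69) and BAG3, which links HSP70 clients to autophagy (772 and 1072 counts, 0.53, 0.40 to 0.67), lay just below 1.5-fold on the log2 scale. BAG2, an inhibitor of STUB1, was the lowest, with 1880 and 2215 counts and a log2 ratio of 0.29 (0.20 to 0.38). All 4 intervals lay above no change.

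The 7 HSP40 proteins held the widest spread of any group, with log2 ratios from -0.51 to 1.23. DNAJB1, the classical stress-inducible HSP40 (chromosome 19, 14625582 to 14629201, minus strand, 3 exons), went from 1776 to 4002 counts (68.9 to 162 CPM), 2.34-fold higher (2.22 to 2.48). DNAJA1 (chromosome 9, 33025209 to 33039062, 9 exons), an abundant farnesylated J protein of the cytosol, went from 3660 to 7654 counts (142 to 309 CPM), 2.18-fold higher (2.09 to 2.26). Its close relative DNAJA2 had 1912 and 2119 counts and a log2 ratio of 0.21 (0.12 to 0.30). Per length, DNAJA1 stood at 3.79 times DNAJA2 in DMSO (3.59 to 4.01) and at 7.16 times with cabozantinib (6.82 to 7.51).

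DNAJA3, the mitochondrial J protein TID1, had the lowest ratio of the 42. Its counts were 5651 and 3817 and its log2 ratio -0.51 (-0.57 to -0.45), inside 1.5-fold here and past it when scaled by total counts (-0.59). DNAJB4 (0.39), DNAJB6, an inhibitor of protein aggregation (0.28), and DNAJC7, a J protein with tetratricopeptide repeats (0.06), made up the rest on the log2 scale, and DNAJC7 turned to the other side of no change under scaling by total counts. Of the mitochondrial chaperones on the list, TRAP1 and DNAJA3 thus lay below no change, HSPD1 slightly above it and HSPE1 past 1.5-fold. Their HSP70 partner HSPA9, mortalin, which is not among the 42, went from 34608 to 20678 counts, 1.61-fold lower (1.58 to 1.64), while its exchange factors lay on opposite sides of no change. GRPEL2 went from 2826 to 1626 counts, 1.67-fold lower (1.57 to 1.78), and GRPEL1 from 1331 to 1617 counts, a log2 ratio of 0.34 (0.23 to 0.44) that was not called. The grouping by mitochondria was made after these values were seen.

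**Figure D3:**
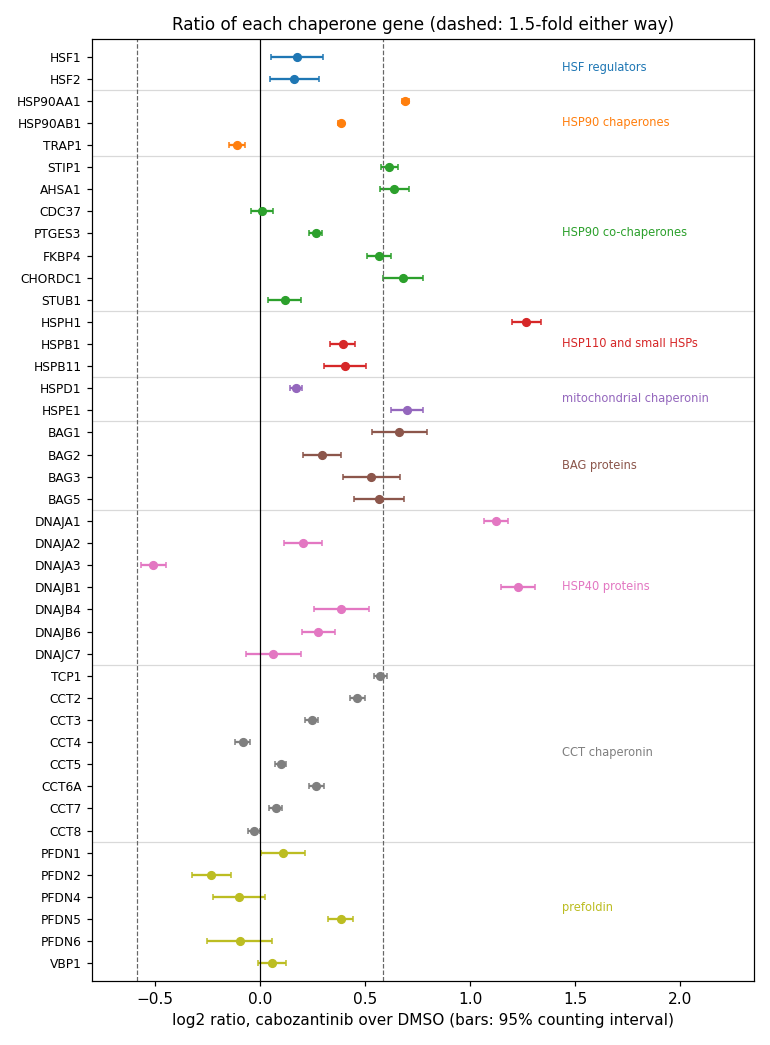
Log2 ratio (cabozantinib over DMSO) of each chaperone gene, coloured by role group; bars are 95% counting intervals and dashed lines mark 1.5-fold either way. HSPH1, DNAJB1 and DNAJA1 stand apart at 1.12 to 1.27, 6 more genes lie just past the right dashed line, and DNAJA3 is lowest at -0.51.

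None of the 8 CCT subunits was called, with 0 higher, 0 lower and a median of 0.17 on the log2 scale. The subunits form a ring with 1 copy of each, yet their ratios were not alike. TCP1, subunit 1, was highest, with 15197 and 21722 counts (590 and 877 CPM) and a log2 ratio of 0.57 (0.54 to 0.60), just under the size required. CCT2 followed at 0.46 (0.43 to 0.50), then CCT6A at 0.27, CCT3 at 0.25, CCT5 at 0.10 and CCT7 at 0.07. CCT8 (-0.03, -0.06 to -0.001) and CCT4 (14124 and 12816 counts, -0.08, -0.12 to -0.05) lay below no change, and CCT7 joined them when scaled by total counts.

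Per length, the CCT subunits lay between 177 (CCT6A) and 408 RPKM (CCT8) in DMSO, a 2.31-fold range, and between 213 and 400.0 RPKM with cabozantinib, a 1.88-fold range between the same subunits. TCP1 moved from the fifth place to the second in this order, at 240.4 and 357 RPKM. In DMSO the counting interval of the ratio excluded equality for every pair of neighbours in the order, narrowly for TCP1 and CCT4 (1.02, 1.0005 to 1.05). With cabozantinib it did not for TCP1 and CCT3 (ratio 1.01, 0.988 to 1.03) and for CCT2 and CCT7 (1.01, 0.984 to 1.03). These intervals cover counting error only, and not which exons were in use or how reads aligned. Close places in the order are therefore not established. Exons of TCP1 overlap those of ACAT2 on the opposite strand by 397 bases, and whether strand was used in counting is not known here. ACAT2 itself had 5339 and 5434 counts, a log2 ratio of 0.08.

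Prefoldin, the hexamer that feeds CCT, showed no called subunit, with 0 higher and 0 lower of 6 (median log2 ratio -0.02). PFDN5, also known as MM-1 for its binding to MYC, was highest, with 3970 and 4980 counts and a log2 ratio of 0.38 (0.32 to 0.44). PFDN2 was lowest, with 2114 and 1729 counts and a log2 ratio of -0.23 (-0.33 to -0.14). PFDN1 lay at 0.11 and VBP1, the third subunit, at 0.05, while PFDN4 and PFDN6 both lay at -0.10, and the intervals of VBP1, PFDN4 and PFDN6 held no change. VBP1 turned negative under scaling by total counts.

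Per length, PFDN5 led in each library (224 and 293 RPKM) and PFDN4 was last (31.5 and 29.4 RPKM), a range of 7.11-fold in DMSO and 9.95-fold with cabozantinib. The order of the 6 subunits was the same in both libraries. In DMSO PFDN1 and PFDN6 did not differ beyond counting error (ratio 1.07, 0.983 to 1.18).

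**Figure D4:**
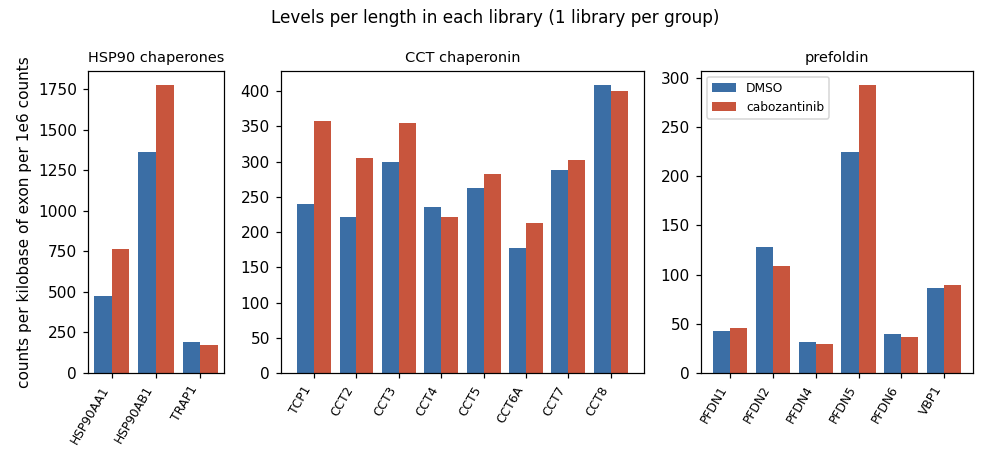
Levels per length (counts per kilobase of annotated exon per 1e6 counts) of the HSP90, CCT and prefoldin genes, DMSO in blue and cabozantinib in red, each bar 1 library with no error bar. HSP90AB1 leads its group at 1362 and 1776, CCT subunits lie within 177 to 408, and prefoldin subunits within 29.4 to 293.

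Across the whole set, the HSP90 co-chaperones and BAG proteins had the highest group medians on the log2 scale (0.57 and 0.55), followed by the mitochondrial chaperonin (0.43), HSP110 with the small heat shock proteins (0.40), the HSP90s (0.38) and the HSP40 proteins (0.28). The CCT chaperonin and the heat shock factors both had 0.17 and prefoldin -0.02. As the log2 ratio of summed CPM, in which abundant genes weigh more than in a median, HSP110 with the small heat shock proteins came first at 0.72 and prefoldin turned to 0.11. Groups of 2 to 8 genes carry no test here, and a difference between group medians was not tested.

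**Figure D5:**
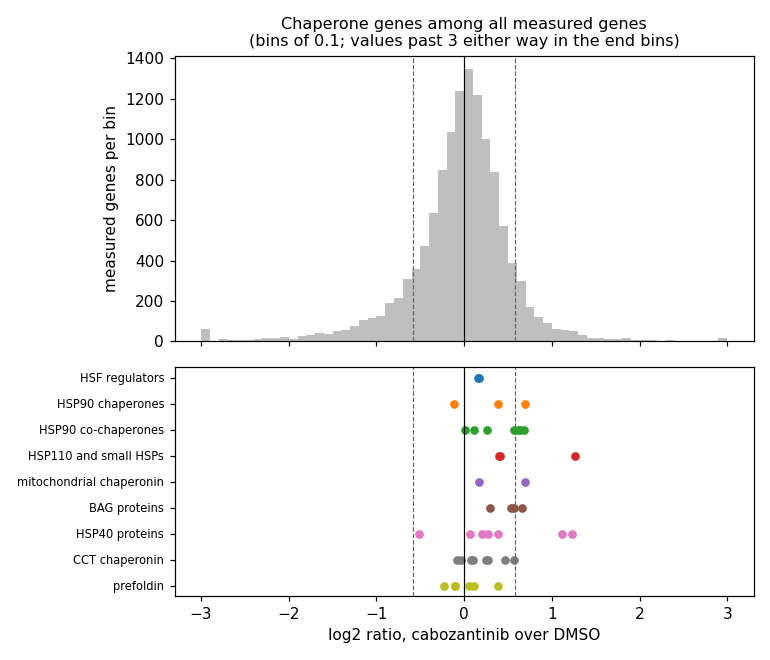
Top, the number of measured genes in each bin of 0.1 of the log2 ratio; bottom, the 42 chaperone genes by role group on the same axis, dashed lines at 1.5-fold. The bulk of all genes is centred at 0.01, and 35 of the 42 chaperone genes lie right of no change.

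HSPH1, DNAJA1 and DNAJB1, 3 of the 42 genes, reached a posterior probability of 0.95 or more of being differentially expressed in the authors' deposited table. The shrunken folds in the authors' deposited table were 2.39 for HSPH1, 2.33 for DNAJB1 and 2.16 for DNAJA1. By the same bound, the authors' deposited table held 1.39% of its 17392 genes as higher and 3.27% as lower. The other 6 genes past 1.5-fold, from HSPE1 to STIP1, had probabilities of at most 0.291 in the authors' deposited table.

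In the deposited hg19 annotation 12 genes outside the set start within 1000 bases of a member on the opposite strand. Of these 0 were called higher and 2 lower, PSPH beside CCT6A and NKIRAS2 beside DNAJC7. Over all measured genes the same rule called 8.15% higher and 12.3% lower, and so few neighbours cannot be told apart from these shares. PSPH, the last enzyme of serine synthesis, starts 110 bases from CCT6A and went from 2576 to 1087 counts, 2.28-fold lower (2.12 to 2.45), beside a CCT6A log2 ratio of 0.27. Of the 9 genes called higher, 3 have such a neighbour. WDR20 beside HSP90AA1 had a log2 ratio of 0.05, CHMP5 beside BAG1 one of -0.37, and VIPAS39 beside AHSA1 one of -0.47.

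Of the 6 genes with a 3-unit element, 3 were called higher (DNAJA1, HSP90AA1 and CHORDC1) and 3 were not (HSP90AB1, DNAJB6 and HSPD1). Among all 9706 measured genes with a window, these 6 included, only 45 held the 3-unit element. Of the 45, 8 (17.8%) were called higher, the 3 just named among them, and of the genes without the element 7.10%. HSPH1, the gene with the largest ratio, held neither element in its window, which says only that these letters are absent there. All 9 genes called higher had windows, and 5 of them held at least the 2-unit element there, namely the 3 above, DNAJB1 and STIP1. Elements outside a gene's own window, such as those of HSPD1 upstream of HSPE1, do not enter this count. Among all measured genes with a window, 6.80% of those with the 2-unit element were called higher and 7.20% of those without. These differences were not tested. TCP1, HSPB1, BAG2, CCT2, DNAJB4, CCT4 and PFDN6 also held 2 units and were not called.

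Counts of calls in other lists of the same folding network are given here, to be read beside the 8.15% higher and 12.3% lower among all measured genes. Of 14 measured further HSP90 co-chaperones, such as FKBP5 and PPID, 0 were higher and 0 lower (median log2 ratio 0.15), and likewise 0 and 0 of 7 genes of the R2TP and TTT complexes (0.03). Among 22 further J proteins 2 were higher and 1 lower (median 0.07). DNAJA4 had 7 and 29 counts, 4.09-fold higher (1.85 to 11.7), DNAJB2 had 130 and 242 counts, 1.93-fold higher (1.56 to 2.42), and DNAJB5 had 98 and 32 counts, 2.91-fold lower (1.96 to 4.54). Of 8 further small heat shock proteins 2 were measured, CRYAB, the lens and muscle chaperone alpha-B crystallin, at 33 and 84 counts, 2.62-fold higher (1.75 to 4.09), and HSPB3 at 82 and 43 counts, 1.82-fold lower (1.25 to 2.72). These low counts give wide intervals.

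Among 4 further BAG and exchange factors 0 were higher and 1, GRPEL2, was lower. Of 7 prefoldin-like proteins and CCT cofactors 0 were higher and 1 lower, CCT6B, the testis form of subunit 6, with 47 and 19 counts, 2.34-fold lower (1.37 to 4.29). None of 5 tubulin cofactors and none of 4 measured partners of HSF1 was called, with 0 higher and 0 lower in each and medians of 0.15 and 0.34.

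Set beside the 42 genes with 9 higher and 0 lower, the HSP70 family had 4 higher and 3 lower of 10 measured genes (median log2 ratio 0.24). Its calls ran from HSPA1A, 5.44-fold higher (4.80 to 6.19), to HSPA6, which fell from 239 to 21 counts, 10.7-fold lower (log2 ratio -3.42, -4.17 to -2.81). HSPA1A and HSPA1B are near-identical and HSPA6 is their close relative, so reads could be split among them. The endoplasmic reticulum chaperones had 0 higher and 5 lower of 18 (median -0.36), HSPA5 and HYOU1 among the lower ones at 2.67-fold (2.62 to 2.73) and 1.61-fold (1.56 to 1.67). The 26S proteasome had 0 higher and 0 lower of 31 (median 0.15). With 1 library per condition these lists were not tested against each other.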

How the data were processed

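RNA was sequenced from 1 library of K562 cells in DMSO and 1 in cabozantinib; groups come from the treatment label. Libraries were strand-specific, per the labels' protocols. The authors deposited whole-number counts per Entrez gene; reads were aligned with Rsubread to hg19, per the file headers, and hg19 and GRCh37 are the builds listed per the submitters' processing notes. Not given in the sources used here is how reads were assigned to genes, with which strand setting and which rule for multiple alignments. The authors' deposited comparison table holds posterior probabilities between 0 and 1 per gene and fold ratios, whose direction was taken by comparing them with ratios of the labelled counts. The remaining 4 columns, which name no sample, were not used.

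Counts were scaled with TMM factors (edgeR 4.0.16, R 4.3.3). Log2 ratios used a pseudocount of 0.5, and intervals are exact (Clopper-Pearson, 95%). No test across conditions was possible with 1 library each, and no p-value was computed. The functions for the log2 ratio, its interval and the call were tested on simulated counts that held counting error only. The motif search was not tested in this way. Promoter windows came from RefSeq (GRCh38.p14), matched by gene ID; gene positions are hg19. The members and lists were chosen with earlier results of these data known. Every member is given; full values go to those past 1.5-fold, the 3 nearest below in size, HSF1, HSF2, HSP90AB1, TRAP1 and each role group's extremes, and of other lists to at most 2 genes each way. Protein sequences were not used here. Python 3.11.15, numpy 2.4.6, scipy 1.17.1, pandas 2.3.3 and DESeq2 1.42.0 were also used. PCR reads without molecular identifiers are not independent molecules, so intervals cover counting error only.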

Additional observations from a re-analysis of the deposited data

How the results depend on the processing

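The counts of 9 higher and 0 lower held with DESeq2 size factors, upper quartile scaling, a pseudocount of 5, a filter of 5 CPM, no filter, and the size of the shrunken deposited fold alone. Scaling by total counts lowers every log2 ratio by the same 0.08 and gave 6 higher and 1 lower (DNAJA3). It moved the median of all members to 0.19, and those of the HSP90s to 0.30, co-chaperones 0.48, HSP110 and small heat shock proteins 0.32, mitochondrial chaperonin 0.35, HSP40 0.19 and CCT 0.088. At 2-fold, 3 members were higher, beside 2.71% higher and 5.76% lower among measured genes. At 1.5-fold the shares of 8.15% higher and 12.3% lower became 4.47% and 7.17% of a larger number of genes without a filter, and the lower share was 5.62% at a mean of 50 CPM or more. Upper quartile scaling moved the HSP90 median to 0.37. As ratios of summed CPM the values were 0.35 for all members, 0.46 for HSP90s, 0.38 for co-chaperones, 0.72 for HSP110 and small heat shock proteins, 0.24 for the mitochondrial chaperonin, 0.44 for HSP40 and 0.11 for prefoldin.

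Alternatives chosen after seeing the data were members whose exons overlap no other gene (8 higher, 0 lower; medians 0.39 for all, 0.69 for HSP90, 0.63 for co-chaperones, 0.39 for HSP40 and 0.10 for CCT, over fewer genes) and total counts without globin and mitochondrial genes (8 higher, 0 lower, STIP1 at 0.58 just under the size; HSP90 0.35, CCT 0.14). The 2-unit element was found for 15 genes in place of 6. No paired analysis was possible because each condition has 1 library. No library could be left out for the same reason. Depth does not limit the members, which had at least 668 counts in each library.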

Other observations

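Outside the 42 chaperone genes, 39 measured genes held the 3-unit heat shock element in a RefSeq promoter window, of which 5 (12.8%) were higher and 2 (5.13%) lower by 1.5-fold, with a median log2 ratio of 0.19. Over all measured genes, with or without a promoter window, these values were 8.15%, 12.3% and 0.01. Among measured genes with a window but without this element, 7.10% were higher. HSPA8, the constitutive HSP70, was the highest, from 21298 to 73936 counts, 3.61-fold higher (3.56 to 3.67). PGAM5, a phosphatase of mitochondria, went from 2173 to 3346 counts, 1.60-fold higher (1.52 to 1.69), LINGO1 from 489 to 825 counts, 1.75-fold higher (1.57 to 1.97), CD83 from 113 to 200 counts, 1.84-fold higher (log2 ratio 0.54 to 1.23), and RBM23 from 1430 to 2069 counts, a log2 ratio of 0.59 (0.49 to 0.69). HSPA6, an HSP70 that is strictly stress-inducible, went the other way, 10.7-fold lower, and PDE11A was 1.53-fold lower (1.24 to 1.91). This lookup was made after the values were seen, and nothing was tested with it.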
